A study of Mus musculus with 5 samples.

Results

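The wild-type arrays of this series give a ranking of genes by array signal in unmodified cartilage from the condyle of the mouse mandible, the joint head of the lower jaw. They were selected by their label as wild-type mice, and they number 3 of 5 arrays. All are of strain 129/Sv, each from a mouse of its own (wild types 3, 4 and 6), and the other 2 arrays, from mice without the collagen receptor DDR-1, were not used here. Total RNA was taken directly from the cartilage, without removal of ribosomal RNA, marked with biotin and read on Affymetrix Mouse Gene 1.0 ST arrays, which place probes over the full length of each transcript. The sources used here do not give the age or sex of the mice or the way the tissue was cut. In bulk tissue, fewer cells of a type and less RNA per cell cannot be told apart.

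Condylar cartilage is a fibrocartilage: a fibrous layer rich in type I collagen covers growing chondrocytes that lay down type II, IX and XI collagen fibrils, and below them hypertrophic chondrocytes adjoin bone and marrow. Aggrecan and its link protein hold water between the fibrils, COMP and matrilins connect the fibrils, and lubricin coats the surface. Sox9 is the transcription factor that switches on the genes of the cartilage matrix. Receptors of smell (Olfr genes) and of pheromone sensing (Vmn genes) are known for expression in sensory neurons of the nose, and so serve as a yardstick for the signal of genes that cartilage is not known to use.

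The ranking held 19938 genes, each by the mean log2 signal of its brightest row over the 3 arrays, and 1194 of them were receptor genes (1027 Olfr and 167 Vmn). Receptor genes had a median of 3.93 on the log2 scale, against 5.16 for all genes. The level used below is the 95th percentile of the receptor genes on each array, which was 5.50 in wild type 3, 5.54 in wild type 4 and 5.58 in wild type 6. A gene was called above it only where it passed on all 3 arrays, which 6013 genes did, 30.2% of those ranked. A signal depends on a gene's probes as well as on its RNA, so the order of signals is not an order of abundance, and with 1 group there is no test in what follows. The share of 30.2% is the background against which the count of each gene list is to be read.

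The receptor distribution and that of all other genes overlapped widely. By mean signal, 4194 genes, 21.0% of all, lay within 0.25 log2 of the level, so their side of it is loosely set. Only 940 genes stood more than 1 log2 above it, 7 of them receptor genes, and 121 stood more than 2 log2 above. The highest receptor genes were far over the level, with Olfr1174 at 7.62 in each mouse and Olfr1347 at 7.37, 7.37 and 7.32. By mean, the genes just above the level were Rgs8, Mvp and Dab1 and those just below were Ogfr, Tuba4a and Syne1, all 6 of them at 5.55.

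**Figure D1:**
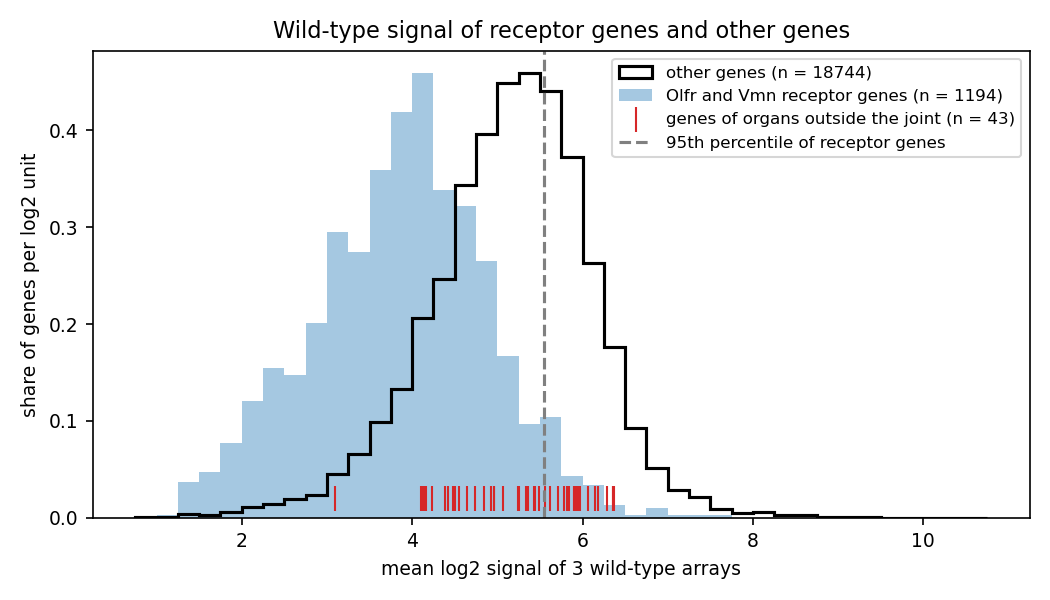
Distribution of the mean log2 signal of 3 wild-type arrays for 1194 receptor genes (filled) and 18744 other genes (line), as share of genes per log2 unit. Red ticks are 43 genes of organs outside the joint, and the dashed line is the receptor level by mean, 5.55. The receptor genes centre lower, and the upper part of their distribution lies under the main body of the other genes.

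A second, stricter yardstick was made from 43 genes that are textbook products of organs outside the joint, such as liver, pituitary, pancreas, testis and lung. Their median was 5.36, higher than the median of all genes, and 16 of 43 (37.2%) passed the receptor level, a larger share than the background. The highest were the dopamine transporter Slc6a3 (6.30, 6.52 and 6.30 in wild types 3, 4 and 6) and the neuropeptide gene Oxt (6.34, 6.36 and 6.36). Others lay low, such as albumin (Alb; 4.58, 4.09 and 4.05) and the club cell product Scgb1a1 (2.76, 2.86 and 3.67). Above the 95th percentile of these organ genes on each array stood 1370 genes, 6.87% of all, and above the 99th percentile of the receptor genes stood 1696 genes, 8.51%. Passing the receptor level alone therefore does not set a gene apart from genes of distant organs.

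All 6 markers of condylar cartilage passed the receptor level, and 4 of them also passed the organ genes. Col2a1, the main fibril collagen of cartilage, stood at 7.27 in each of the 3 mice, at percentile 98.9 of the ranking. Col9a3, from the collagen that sits on the surface of those fibrils, read 7.17, 7.01 and 7.0. Col1a1, of the fibrous layer and bone, read 7.26, 7.26 and 7.27, as high as Col2a1 on its own probes. Sparc, a collagen-binding protein of bone and fibrous tissue, was the highest of the 6 and the one that differed most between mice, with 7.11, 7.50 and 7.70. Comp stood at 6.27, 6.21 and 6.21 and Sox9 at 6.01, 6.02 and 6.01, which is above the receptor level and below the organ level. Comp and Sox9 thus lie in the range that genes of other organs also reach. The markers are a small choice, and as given below other genes of cartilage, such as Acan, were under the receptor level, while a high signal was common to nearly all collagens.

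The 7 cartilage collagens all passed both yardsticks. Their median was 7.06, at percentile 98.4 of the ranking. The highest was Col9a2, at 7.52, 7.57 and 7.50, and the next Col27a1, a fibril collagen of cartilage, at 7.40, 7.39 and 7.34. The Col11a2 chain, which helps set the width of type II fibrils, read 6.85, 6.85 and 6.88. Col11a1 read 6.50, 6.51 and 6.50, and the lowest of the group, Col9a1, read 6.47 in each mouse. The mice did not differ from each other in any of the 7 by more than 0.173 log2.

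Of the collagens of the fibrous layer and bone, 9 of 11 passed the receptor level and 7 the organ level. Col6a1, of the beaded network around the cells, led with 7.46, 7.40 and 7.28. The second chain of type I collagen, Col1a2, read 6.99, 7.05 and 6.99. Those that failed were Col5a2, at 5.44 in each mouse, and Col12a1, which decorates type I fibrils, at 5.33 in each mouse. The partners of a heterotrimer did not have like signals, since Col5a1 read 6.50, 6.53 and 6.51 where Col5a2 was below the level.

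Collagens on neither the cartilage list nor the list of the fibrous layer and bone were high as well. Over all 44 collagen genes of the ranking, a family taken after the values were seen, 41 passed the receptor level (93.2%) and 26 the organ level (59.1%). Among the 26 on neither list, 25 passed the receptor level and 12 the organ level, with a median of 6.34. They include Col7a1, of the anchoring fibrils of skin (6.91, 6.83 and 6.83), and Col4a3, of the kidney's basement membrane (6.46, 6.43 and 6.42). The highest was Col6a6, at 7.63, 7.17 and 7.12, though its other row lay at 5.85. The 18 collagens of the cartilage and fibrous lists had a median of 6.69, and 14 of them passed the organ level. The third collagen below the receptor level was Col10a1, the collagen of hypertrophic chondrocytes, at 5.14, 5.44 and 5.44. A high signal was thus shared by nearly the whole family, and what the family's probes have in common was not tested.

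**Figure D2:**
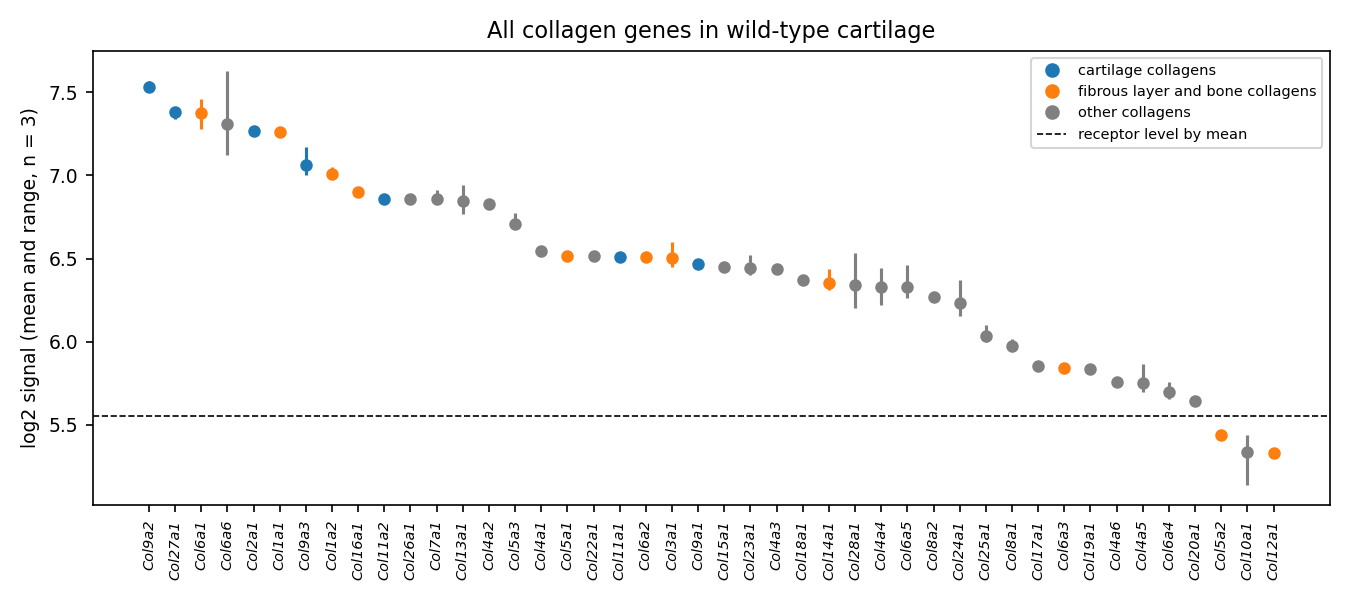
Log2 signal (mean and range over 3 wild-type mice) of the 44 collagen genes in falling order, coloured by list, with the receptor level by mean as a dashed line. Cartilage collagens (blue) lie between 6.47 and 7.53 among collagens on neither list (grey), and only Col5a2, Col10a1 and Col12a1 lie below the line.

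The proteoglycans and linker proteins of cartilage did not stand out in the same way. Of 22, 6 passed the receptor level (27.3%, near the background) and 2 the organ level, and their median percentile was 54.6. The 2 were Cilp2, a protein of the cartilage interterritorial matrix, at 6.57 in each mouse, and perlecan (Hspg2), at 6.56, 6.40 and 6.40. Comp, chondromodulin (Cnmd; 6.08, 6.05 and 6.04), Snorc (5.91 in each) and the chain-starting enzyme Xylt1 (5.89, 5.90 and 5.89) made up the rest. Aggrecan (Acan), the core proteoglycan of cartilage, read 5.40 in each mouse, below the level at percentile 60.6. Its link protein Hapln1 was lower, with 5.16, 5.16 and 5.23. Lubricin (Prg4), the lubricant of the joint surface, read 4.68, 4.57 and 5.20, highest in wild type 6 and below the level in all 3. Matrilin 1 (Matn1) stood at 4.44, and Scrg1, the lowest of the list, at 3.89, 3.80 and 3.92.

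The small leucine-rich proteoglycans, which coat collagen fibrils, were lower still and several of them varied between mice. Of 11, 3 passed the receptor level and none the organ level: Chad at 5.90, Prelp at 5.72 and biglycan (Bgn) at 5.66, each the same in the 3 mice. Their median was 4.85, at percentile 37.3. Decorin (Dcn) read 4.50, 4.35 and 5.70, and asporin (Aspn) read 5.47, 4.74 and 5.89, so that both were above the level in wild type 6 and below it in wild type 4. Osteoglycin (Ogn) read 3.24, 2.67 and 3.34 and lumican (Lum) 4.29, 4.08 and 4.59, with the same order of the mice. The median range over the mice was 0.243 log2 for these 11 genes, against 0.0448 for all genes and 0.269 for the housekeeping genes.

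The chondrocyte transcription factors matched the background, with 4 of 13 above the receptor level and none above the organ level. Nkx3-2, which keeps chondrocytes from maturing, read 6.24, 6.16 and 6.16, and Barx2 read 6.13 in each mouse. Foxa2, a driver of hypertrophy, read 5.95, 6.08 and 5.95, while its relative Foxa3 stood at 4.14, 4.18 and 4.14. The partners of Sox9 fell below the level, Sox6 at 5.49 and Sox5 at 5.09 in each mouse.

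Of the genes of hypertrophic chondrocytes, 5 of 10 passed the receptor level and 2 the organ level. Bone sialoprotein (Ibsp), which binds mineral, read 6.79, 6.76 and 6.84, and Indian hedgehog (Ihh), the signal of prehypertrophic cells, read 6.57 in each mouse. Vegfa, which draws vessels into the hypertrophic zone, was at 6.26, 6.16 and 6.16 and the mineralising phosphatase Alpl at 5.89, 5.89 and 5.90. Besides Col10a1, the collagenase Mmp13 was below the level, at 5.38. The lowest was Phospho1, at 4.93, 5.06 and 5.06.

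**Figure D3:**
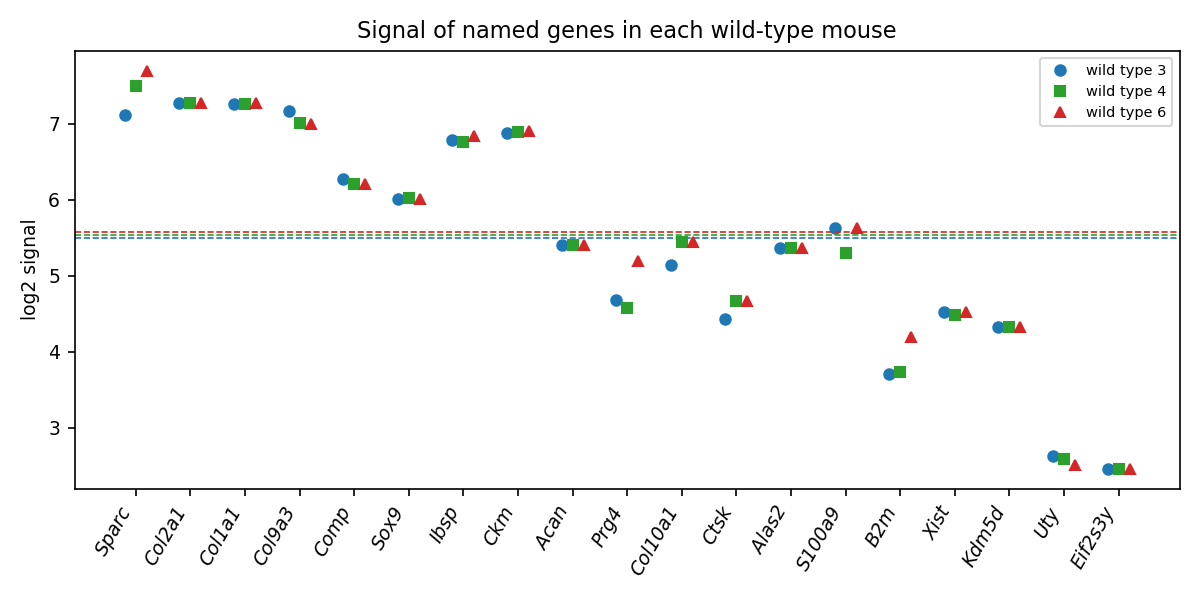
Log2 signal of named genes in wild types 3, 4 and 6, with the receptor level of each array as dashed lines (5.50, 5.54 and 5.58). The 6 markers, Ibsp and Ckm lie above the lines in every mouse, Acan, Prg4, Col10a1, Ctsk, Alas2, B2m and the sex-linked genes below them, and S100a9 on both sides.

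Other genes of the fibrous layer and tendon split evenly, with 9 of 19 above the receptor level (47.4%, against 30.2% of all genes). Above the organ level stood 3 (15.8%, against 6.87% of all genes). Next to Sparc, these were Scleraxis (Scx), the transcription factor of tendon, at 7.15, 6.61 and 6.61, and elastin (Eln), at 6.37 in each mouse. Periostin (Postn), of the periosteum, read 5.92, 5.22 and 5.60 and so was below the level in wild type 4. The collagen crosslinker Lox was the lowest, at 4.14, 4.14 and 4.29.

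The machinery that folds and exports collagen was at the background share, with 6 of 23 above the receptor level and 2 above the organ level. The collagen chaperone Serpinh1 passed the organ level at 6.54 in each mouse, and Sec61b, of the channel into the endoplasmic reticulum, did so at 6.84, 6.77 and 6.77, although its other rows lay between 3.63 and 5.05. The coat protein Sec23a, which carries procollagen out, was at 4.09, 4.09 and 3.98. Of the proteases and inhibitors of the matrix, 3 of 18 passed the receptor level and 0 the organ level, with Mmp2 at 6.12 in each mouse, the aggrecanase Adamts4 at 6.09, 6.19 and 6.09 and the cathepsin inhibitor Cst3 at 5.59, 5.88 and 5.88. Of the collagen receptors, 2 of 11 passed the first and 0 the second. These were Ddr1, the gene deleted in the other mice of the series, at 6.02 in each mouse, and the type II collagen integrin Itga10 at 6.07, 5.97 and 5.97. Ddr2 read 5.52 in each mouse, above the level only in wild type 3, and the shared integrin chain Itgb1 read 4.75, 4.73 and 4.75.

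Bone genes gave 7 of 16 members above the receptor level and 4 above the organ level. Tnfsf11, the signal that calls osteoclasts, was the highest at 7.49, 7.39 and 7.39. Sost, the Wnt inhibitor of osteocytes, read 6.65 in each mouse and podoplanin (Pdpn), of young osteocytes, 6.63, 6.47 and 6.47. Other osteocyte genes were below the level, with Dmp1 at 4.95 and Mepe at 3.74 in each mouse, and so was Sp7, the transcription factor of osteoblasts, at 4.91. Among osteoclast genes, 5 of 15 passed the receptor level (33.3%, near the share of all genes) and none the organ level. The osteoclast phosphatase Acp5 read 5.98, 5.95 and 5.95, whereas cathepsin K (Ctsk), the collagen-degrading enzyme of osteoclasts, read 4.43, 4.66 and 4.66 and Car2 3.80, 3.88 and 3.88. The defining genes of bone cells and of osteoclasts were therefore found on both sides of the level.

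Genes of marrow and blood were at or below the background share in most lists. Above the receptor level stood 3 of 10 red cell genes, 3 of 17 neutrophil genes, 3 of 16 macrophage genes, 3 of 14 B lymphocyte genes, 3 of 11 T lymphocyte genes, 1 of 9 mast cell genes and 2 of 6 megakaryocyte genes. Only Treml1, of platelets, passed the organ level, at 7.17, 7.33 and 7.17. The haem enzyme of red cells, Alas2, read 5.37 in each mouse, and 6 of the 19 places of the red cell list, the haemoglobins among them, lay only in rows with several gene symbols and were not analysed here. The neutrophil granule genes differed among themselves. Prtn3 was at 6.22, 6.43 and 6.22, Elane at 5.54 in each mouse and above the level only in wild type 3. S100a9 read 5.63, 5.30 and 5.63, Mpo read 5.22, 5.58 and 5.58, and S100a8 stood at 5.01 in each mouse. Cd3e, of the T cell receptor complex, was at 5.80, 6.0 and 6.0, and Cd79a, of the B cell receptor, at 4.72, 4.97 and 4.94.

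Skeletal muscle genes passed the receptor level more often than the background, 18 of 37 (48.6%), and 4 passed the organ level. The lateral pterygoid muscle attaches beside the condyle. Muscle creatine kinase (Ckm) read 6.87, 6.89 and 6.90, and 3 fast-fibre troponins were nearly as high: Tnni2 at 6.95, 6.84 and 6.84, Tnnc2 at 6.78, 6.77 and 6.92, and Tnnt3 at 6.54, 6.54 and 6.99. Skeletal actin (Acta1) read 6.68, 6.32 and 6.32. The fast myosins were below the level, with Myh4 at 5.29, 5.03 and 5.03, Myh1 at 4.62, 4.70 and 4.86 and the light chain Myl1 at 4.14, 4.08 and 4.14. Since the troponins and creatine kinase were high where the myosins were not, the list gives no single direction, and the part of muscle RNA in these arrays was not tested.

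Among the remaining neighbours, 7 of 17 endothelial and mural genes, 4 of 11 fat cell genes, 4 of 9 nerve and Schwann cell genes and 3 of 12 epithelial genes passed the receptor level, and of all these only the epithelial Krt8 passed the organ level. The endothelial junction gene Cldn5 read 6.24 in each mouse, but Pecam1 (5.37, 5.31 and 5.15) and Cdh5 (5.02, 5.0 and 4.71) were below the level and lowest in wild type 6. Perilipin (Plin1) read 6.12 in each mouse, while the fat hormone Adipoq read 3.79, 4.11 and 4.11. The simple-epithelium keratins Krt8 (7.02, 7.06 and 7.0) and Krt18 (6.39, 6.34 and 6.18) were above, and Krt5 and Epcam, which define covering epithelium, were below at means of 4.99 and 4.78. The 4 sex-linked genes measured were all below the level, with Xist, the RNA of the inactive X chromosome, at 4.53, 4.48 and 4.53 and the Y-linked Kdm5d at 4.32 in each mouse. Neither Xist nor a Y-linked gene marked any of the 3 mice, so these signals do not give their sex. The Y-linked Ddx3y had no row under its name. A signal below the level is not read as absence of the RNA for these genes either.

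Housekeeping genes were not a uniform high group. Of 26, 14 passed the receptor level (53.8%) and 4 the organ level. Those 4 were pyruvate kinase (Pkm; 7.40, 7.21 and 7.21), Ldha (7.10, 6.69 and 6.69), Ywhaz (6.44, 6.81 and 6.80) and beta-actin (Actb; 6.75, 6.56 and 6.56). Several genes that most cells express lay within the receptor distribution. The MHC class I light chain B2m read 3.70, 3.74 and 4.19, Pgk1 read 3.97 in each mouse, Hprt read 4.30, 4.39 and 4.30, and the TATA-binding protein gene Tbp read 4.18, 4.62 and 4.48. For this reason a signal below the receptor level is not read here as absence of the RNA.

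Ribosomal protein genes had the largest share after the collagens, with 41 of 55 above the receptor level (74.5%) and 18 above the organ level. Rplp1 was the highest, at 8.32 in each mouse, followed by Rpl37a at 7.89 in each and Rpl36 at 7.96, 7.82 and 7.79. Others of the same particle were far lower, with Rps15a at 3.0 and Rpl30 at 4.07 in each mouse. Many of these genes have several rows, of which the brightest was taken. For genes with more than 1 row, the share above the level was 45.9% over the whole ranking, against 29.3% for genes with 1 row. Among ribosomal protein genes with 1 row, 8 of 16 passed. Nuclear genes of oxidative phosphorylation gave 14 of 29 above the receptor level and 4 above the organ level, led by Atp5c1 at 7.25, 7.23 and 7.13, and genes of hypoxia and glycolysis gave 10 of 19 and 4.

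The immediate-early genes, which rise within minutes of handling or stress, gave 16 of 22 above the receptor level (72.7%) and 4 above the organ level. The 4 were Klf2 (7.14, 7.30 and 7.15), Egr3 (7.06, 7.07 and 7.17), Socs3 (6.85, 6.99 and 6.85) and Jund (6.70 in each). The best known members were lower, Fos at 6.01, 5.98 and 5.98 and Egr1 at 5.80 in each mouse, and Myc was below the level at 4.99, 4.92 and 4.93. Genes of cell division were at the background, 5 of 17, and 0 of them passed the organ level, with Aurkb at 6.45, 6.25 and 6.25 and the proliferation antigen Mki67 at 5.14 in each mouse.

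**Figure D4:**
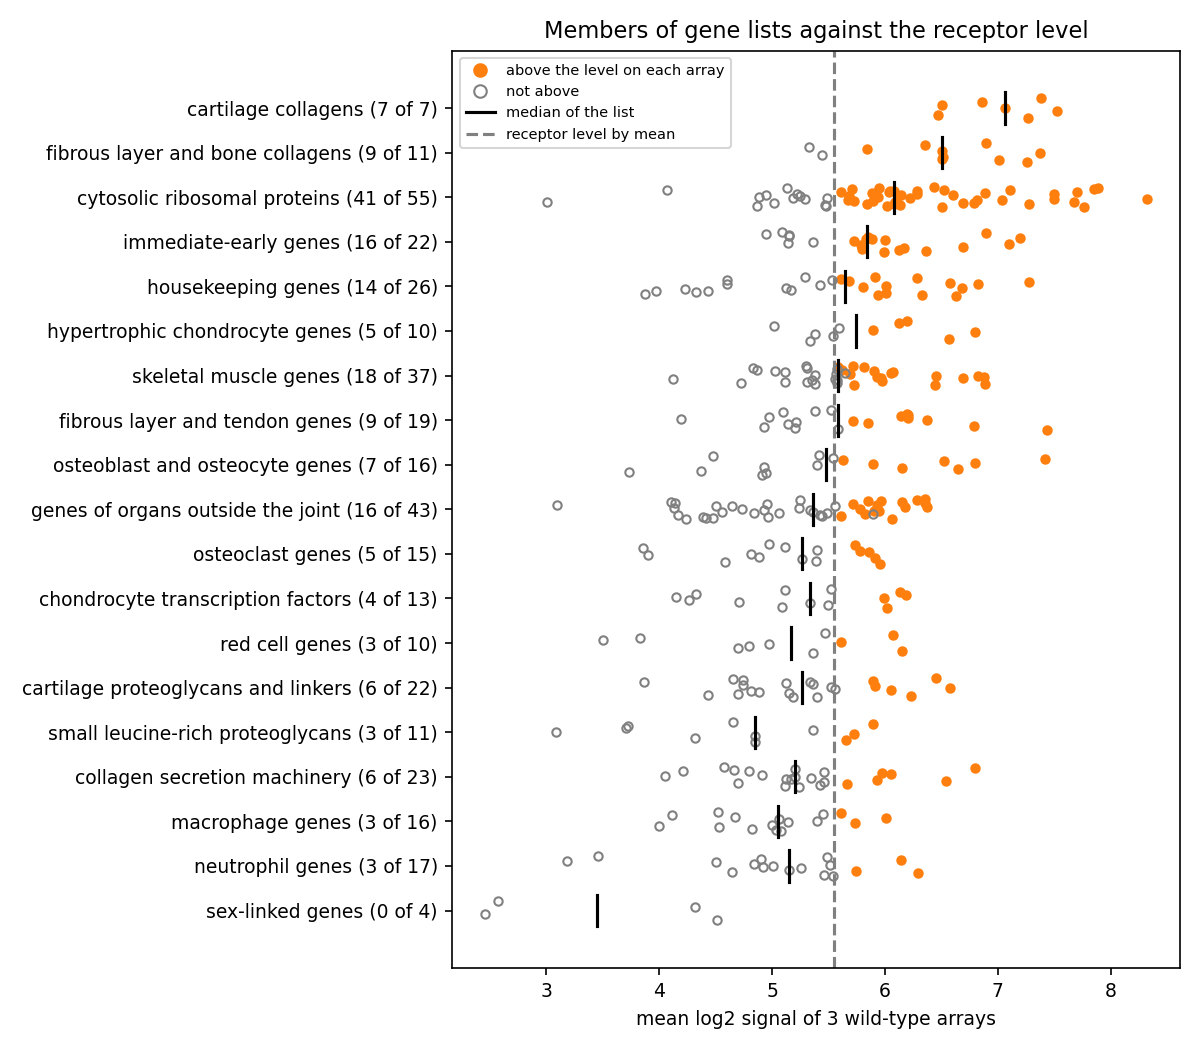
Mean log2 signal of 3 wild-type arrays for the members of 19 gene lists, with the number above the receptor level of those measured in brackets. Filled points passed the level on each array, open points did not, the short bar is the list's median and the dashed line the level by mean, 5.55. The cartilage collagens all lie to the right of the line, and so do the fibrous layer and bone collagens except Col5a2 and Col12a1. Most other lists lie on both sides of it.

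The top of the ranking was not made of matrix genes. Of the 20 highest named genes, 0 entered the count of a gene list. The mitochondrially encoded COX2 is among the 20, and a list holds it only under another name. To reach the 20, 12 predicted, numbered or small RNA genes were passed over, 7 of them microRNA genes. Aldh3b3, an aldehyde dehydrogenase, was the highest at 10.51, 10.13 and 10.20. Its other rows lay at 4.89 and 5.42, below the receptor level. The antioxidant enzyme Sod1 followed at 10.02, 10.03 and 10.14, with 1 row. Next came Myo18b, an unconventional myosin of muscle, at 9.92, 9.92 and 10.12, with 20 rows of which the lowest lay at 4.45. Among the 20, 13 had more than 1 row, where 5.01% of all genes do, and 11 had another row below the receptor level. COX2, as the annotation names the mitochondrially encoded subunit of cytochrome c oxidase, read 9.16, 8.53 and 9.98 with its other row at 9.13. ND3, a mitochondrially encoded subunit of complex I, showed the same order of the mice, with 7.13, 6.72 and 8.32.

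The arrays of the 3 mice resembled each other closely. Across the 19938 genes, Spearman's rho was 0.985 between wild types 3 and 4, 0.984 between 3 and 6 and 0.994 between 4 and 6, given as a description over genes that share the normalisation. The names of the arrays set wild type 3 apart from wild types 4 and 6, which is read here as a difference of run. Wild types 4 and 6 differed by an SD of 0.116 log2 over genes, against 0.177 and 0.182 for the pairs with wild type 3. Of the 100 highest genes, 92 were shared by wild types 4 and 6, 88 by 3 and 4 and 86 by 3 and 6. Such a run and the mouse cannot be told apart here for wild type 3, which is alone in its group of names.

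The deposited values had 39.1% of genes (7786) identical to the last digit on the 3 arrays. A further 4519 had the same value on wild types 4 and 6 alone, 2822 on 3 and 6 alone and 1157 on 3 and 4 alone. Summarising probes by their medians can return such ties where the probes differ, so an identical value does not show equal expression, and no SD is given for the genes above. The median range over the mice was 0.0448 log2 for all genes, and 74 genes had a range over 1 log2. Of those above the receptor level, 12 had such a range. The widest was Baiap2l1, an actin-binding adaptor, at 7.45, 8.57 and 9.61. Rbm25, a splicing factor, was high in wild type 3 alone, at 7.58, 6.12 and 6.14. The immunoglobulin segment Igkv4-55 was low in wild type 3, at 6.0, 7.24 and 7.41, and so was the potassium channel gene Kcnj14, at 5.64, 6.80 and 6.80.

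MicroRNA genes reached both ends of the ranking, and their hairpin sequences show what went with their signal. Of 300 microRNA genes ranked, 258 had a hairpin in the RefSeq table (GRCm38.p6). The 3 highest and the 3 lowest of them, picked after the values were seen, are printed 5′ to 3′ with G and C in capitals.
Mir181d: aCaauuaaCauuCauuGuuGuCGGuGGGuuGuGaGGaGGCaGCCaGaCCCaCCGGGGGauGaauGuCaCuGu
Mir341: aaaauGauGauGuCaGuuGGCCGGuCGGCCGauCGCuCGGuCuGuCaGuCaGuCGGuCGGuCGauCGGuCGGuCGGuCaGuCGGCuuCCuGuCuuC
Mir139: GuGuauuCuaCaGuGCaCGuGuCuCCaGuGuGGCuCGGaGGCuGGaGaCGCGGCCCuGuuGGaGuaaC
Mir376c: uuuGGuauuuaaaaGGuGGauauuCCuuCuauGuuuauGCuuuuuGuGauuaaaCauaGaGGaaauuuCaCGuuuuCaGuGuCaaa
Mir144: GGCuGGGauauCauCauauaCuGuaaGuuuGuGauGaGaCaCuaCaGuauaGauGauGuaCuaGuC
Mir297-1: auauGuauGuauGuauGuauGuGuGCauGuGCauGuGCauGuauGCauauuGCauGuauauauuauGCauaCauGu
The first of these, Mir181d (chr8:84178716-84178787, minus strand), read 9.35, 9.25 and 9.24, with 51.4% G and C. Mir341 (chr12:109611500-109611595, plus strand) read 9.22, 9.23 and 8.78 with 59.4%, and Mir139 (chr7:101475376-101475443, plus strand) read 8.90, 9.04 and 8.90 with 58.8%. At the other end, Mir376c (chr12:109722718-109722803, plus strand) read 1.43, 1.22 and 1.22 with 29.1%. Mir144 (chr11:78073005-78073070, plus strand), a microRNA of red cell precursors, read 1.44, 0.973 and 1.43 with 37.9%, and Mir297-1 (chr7:10958437-10958512, minus strand) read 0.971, 0.908 and 1.11 with 31.6%. The ends differ in degree, with 51.4% to 59.4% G and C in the first 3 and 29.1% to 37.9% in the last 3.

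The mature microRNAs that RefSeq gives for these hairpins follow, with the seed, bases 2 to 8, in capitals. The sequences used here held none for Mir297-1 and only the 5p form for Mir376c. No seed occurs more than once among the 9.
mmu-miR-181d-3p: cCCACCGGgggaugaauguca
mmu-miR-181d-5p: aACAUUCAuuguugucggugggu
mmu-miR-341-5p: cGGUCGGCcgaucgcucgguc
mmu-miR-341-3p: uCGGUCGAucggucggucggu
mmu-miR-139-5p: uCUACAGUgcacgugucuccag
mmu-miR-139-3p: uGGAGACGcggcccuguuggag
mmu-miR-376c-5p: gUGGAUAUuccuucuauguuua
mmu-miR-144-5p: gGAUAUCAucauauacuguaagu
mmu-miR-144-3p: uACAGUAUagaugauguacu
Over the 258 hairpins, the share of G and C went with the mean signal at Pearson's r = 0.805 and Spearman's rho = 0.802, while hairpin length gave r = 0.157. In the single mice r was 0.798, 0.806 and 0.806, so each array showed the same relation. These are correlations across genes that share the arrays and the probe design, and they are given as a description. The hairpins were also split into 5 groups of rising G and C. In the poorest group (28.4% to 41.4%), the median signal was 2.32 and 0 of 52 passed the receptor level. Over the next 3 groups the median went from 3.67 to 4.32 and 5.21 and those above from 3 of 51 to 8 of 52 and 19 of 51. In the richest group (55.1% to 69.2%) the median was 6.73 and 40 of 52 passed. Base composition and expression of these genes cannot be told apart by signal here, and the total RNA was not stated to be selected for small RNAs.

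**Figure D5:**
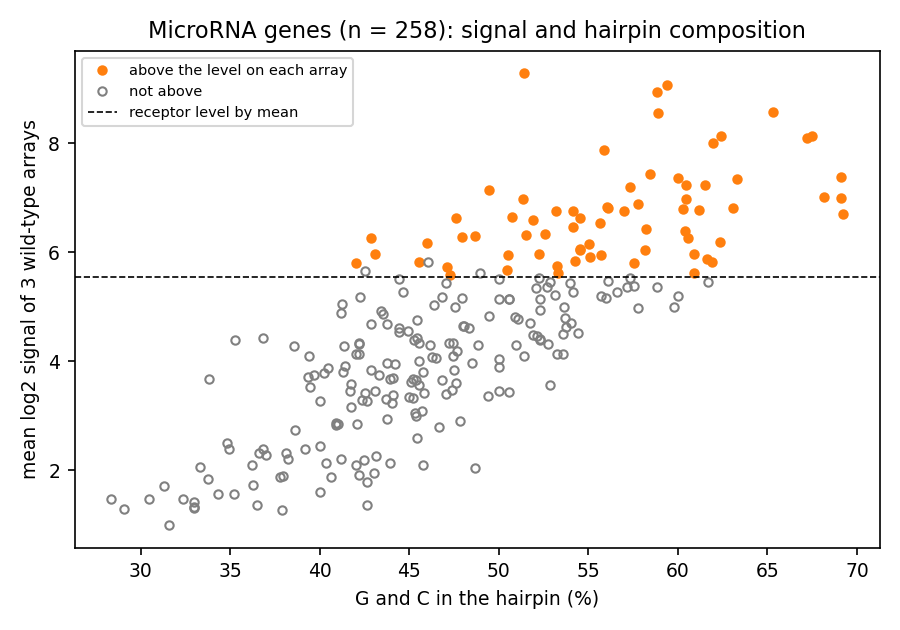
Mean log2 signal of 3 wild-type arrays against the share of G and C in the hairpin, for 258 microRNA genes. Filled points passed the receptor level on each array, and the dashed line is that level by mean. The signal climbs with G and C from about the lower left to the upper right, and the 52 hairpins poorest in G and C are all open points.

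Promoter windows, from 250 bases before the start of a gene to 50 after it, were taken from RefSeq for 15614 of the ranked genes. Of the 6 markers, Sparc had one. It is shown with that of the receptor gene Olfr1040. Among receptor genes with a single window, and with a chromosome left out of the choice, that gene was closest in signal to the receptor median. The windows of Sparc and Olfr1040 are single examples and do not stand for matrix genes or receptor genes as groups. Both are on the minus strand of GRCm38.p6, Sparc at chr11:55420031-55420330 and Olfr1040 at chr2:86146683-86146982, printed 5′ to 3′ with G and C in capitals.
Sparc: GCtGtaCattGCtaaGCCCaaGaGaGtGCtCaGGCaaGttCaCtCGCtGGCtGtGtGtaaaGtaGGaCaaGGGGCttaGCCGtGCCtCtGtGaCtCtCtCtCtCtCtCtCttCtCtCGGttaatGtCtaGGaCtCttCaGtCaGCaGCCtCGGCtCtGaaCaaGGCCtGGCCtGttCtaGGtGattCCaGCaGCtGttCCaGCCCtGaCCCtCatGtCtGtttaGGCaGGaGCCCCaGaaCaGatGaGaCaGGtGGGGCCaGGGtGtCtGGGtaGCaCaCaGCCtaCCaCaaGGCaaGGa
Olfr1040: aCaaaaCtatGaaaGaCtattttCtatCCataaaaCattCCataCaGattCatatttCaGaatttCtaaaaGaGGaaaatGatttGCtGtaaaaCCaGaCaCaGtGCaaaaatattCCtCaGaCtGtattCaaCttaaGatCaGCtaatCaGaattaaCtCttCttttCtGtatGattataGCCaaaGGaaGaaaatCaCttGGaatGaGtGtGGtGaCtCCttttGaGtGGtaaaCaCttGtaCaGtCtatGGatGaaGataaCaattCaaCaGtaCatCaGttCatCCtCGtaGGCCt
The Sparc window holds 55.3% G and C and that of Olfr1040, whose signal was 3.86, 3.94 and 3.98, holds 33.7%. Over the receptor genes the median was 35.3% (1013 genes with a window, the mean of its windows where a gene has several), against 58.3% for all other genes. With the ranking split into 10 groups of equal size, the median climbed from 44.7% in the lowest to 61.0% in the highest. Without receptor genes it went from 51.6% to 61.3%, so the difference between the ends shrank and kept its direction. Read the other way, the genes split into 10 groups by promoter G and C had 4.42% above the receptor level in the poorest group and 39.6% in the richest. Without receptor genes these shares were 9.86% and 39.5%. Among genes already above the level, promoter G and C and signal had r = 0.0633 over 4674 genes.

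The letters TATAAA, searched on the strand of the gene between 40 and 11 bases before the start, were in 2.08% of all promoter windows of the table. Counted by gene, with any window of a gene sufficient, 454 of 15614 ranked genes had them (2.91%). In the lowest of the 10 groups of the ranking 3.07% of genes did, and in the highest 2.43%. On the gene lists, the members with these letters numbered 10 of 35 for organs outside the joint, 5 of 30 for skeletal muscle, 3 of 23 for housekeeping genes and 3 of 11 for the fibrous layer and tendon, and no more than 2 on any other list. Neither the Sparc nor the Olfr1040 window had them there. The match is to letters alone and is not a measurement of binding.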

How the data were processed

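Wild-type condylar cartilage was measured on 3 Affymetrix Mouse Gene 1.0 ST arrays, 1 mouse each. The authors deposited log2 values per row, made with RMA in Affymetrix Expression Console per the submitters' processing notes. RMA corrects background, quantile-normalises arrays and summarises probes by median polish, so signals on different arrays share 1 distribution. Software versions, genome build and annotation were not given in the sources used here.

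Of 35556 rows, 21789 had 1 gene symbol in the platform annotation, 1621 several and 12146 none. Genes with several rows (999) were represented by their brightest row, by the mean of the wild-type arrays. Gene identifiers matched RefSeq GRCm38.p6 for 19856 of 19938 genes. A gene was above the receptor level where it exceeded the 95th percentile of Olfr and Vmn genes on each of 3 arrays. No test was made, since 1 group has no comparison. The number of arrays limits the precision.

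The members and the 33 gene lists were chosen with earlier results of these data known. The lists hold 651 places, of which 560 were measured (547 distinct genes), 31 lay only in rows with several symbols and 60 had no row under the name on the list. These 60 include the mitochondrially encoded mt-Co2 and mt-Nd3, which the annotation calls COX2 and ND3, and which are therefore in no list count. Bglap and Runx2 are among those not analysed here. Genes named were the markers, list members (first the 4 highest and the 2 lowest), the 20 highest genes, the 10 of widest range and the 3 on each side of the level; predicted, numbered and small RNA genes were left out of all but the markers and lists. Collagens on no list, microRNA hairpins, the highest receptor genes and the mitochondrial ND3 were added after the values were seen. Protein features were not analysed here. Alternatives were other percentiles, yardsticks and row rules, each array left out, and a filter on low genes. Python 3.11.15, numpy 2.4.6, pandas 2.3.3, scipy 1.17.1 and matplotlib 3.10.9 were used.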

Additional observations from a re-analysis of the deposited data

Results flagged for a closer look

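Rows without a single gene symbol entered no count of the report, and some of them carried signal over the receptor level on each of the 3 wild-type arrays. Of the 1621 rows with several symbols, 30.7% did so, with a median signal of 4.96 on the log2 scale. Of the 12146 rows with no symbol, 22.7% did so, with a median of 4.50. For the 21789 rows with 1 symbol the share was 29.2%. What these rows measure was not analysed here.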

How the results depend on the processing

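The counts rest on the yardstick. Against 6013 genes above the level, the 99th percentile of receptor genes left 1696, the 90th gave 9532, Vmn genes alone 11977, organ genes 1370 and taste receptor, defensin and hair keratin-associated genes (chosen after seeing the data) 1815, and 1056 were above when genes under the median of all rows were dropped first, which left 11490 genes and set the receptor percentile on the brighter receptor genes alone. Of 547 list genes measured, 228 were above it, and under these settings 74 (99th), 409 (Vmn), 65 (organ genes), 81 (taste receptors and the others) and 60 (low genes dropped) were. The cartilage collagens stayed at 7 of 7 under all 15 alternatives and the fibrous and bone collagens between 6 and 11 of 11. Cartilage proteoglycans went from 6 to 2, 11, 14, 2, 1 and 2 with the 99th percentile, the 90th, Vmn genes, organ genes, low genes dropped and taste receptors and the others, and muscle genes from 18 to 6, 30, 33, 4, 4 and 6. Housekeeping genes went from 14 of 26 to 6 (99th), 4 (organ genes), 9 of 19 (genes with 1 row), 4 (low genes dropped) and 6 (taste receptors and the others), and ribosomal protein genes from 41 of 55 to 19, 18, 8 of 16, 18 and 21. Immediate-early genes went from 16 to 4 in each of 4 settings. Organ genes went from 16 to 3 (99th), 28 (Vmn), 1 (their own 95th percentile), 0 (low genes dropped) and 4 (taste receptors and the others). For 24 other lists, 126 of 360 values differed by over 1.5 times, 93 of them downwards and 0 of them on leaving out a mouse. Leaving out 1 mouse gave 6049 to 6435 genes. The median range of 0.0448 log2 was 0.0516 among genes above the level and 0.227 among genes with 3 different values. The gap in promoter G and C between the highest and lowest of the 10 groups, 16.3 percentage points, was 9.74 without receptor genes. The cause was not tested for any of these. No paired analysis was possible because only wild-type arrays were used and the result comes from no test. Protein features, listed as part of the promoter result, were not run.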

Other observations

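Where the 3 mice differed widely, a set of matrix and housekeeping genes did so in 1 order, which was seen in the values and then counted. Among the 3654 genes with 3 different values, wild type 6 was highest, wild type 3 in the middle and wild type 4 lowest in 281 (7.69%). With a range over 0.5 log2 as well, it was 49 of 471 genes (10.4%). The most frequent order there, wild type 6, then 4, then 3, had 152 (32.3%). On the gene lists, 27 of 121 genes with 3 different values (22.3%) had the picked order. The order of wild type 3, then 4, then 6 had 29 there (24.0%). Since the order was picked from these same values, no share here is a test of it. Among list genes with 3 different values and a range over 0.5 log2, it was 10 of 23 (43.5%). These 10 are Dcn, Aspn, Ogn, Lum and Prg4 of the matrix, the endoplasmic reticulum enzyme Pdia3, and Tpt1, Ppia, Eef1a1 and Rpl4, which most cells express.

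The mitochondrially encoded COX2 and ND3 had the same order. So did, among genes on no list and picked after their values were seen, the nuclear RNA Malat1 (5.72, 5.04 and 6.57 in wild types 3, 4 and 6) and the nucleolar protein Npm1 (5.02, 4.01 and 5.22). Fibronectin (Fn1) read 6.12, 6.02 and 6.49, and Cd63, of the vesicles that cells shed, read 4.70, 4.0 and 4.85. Some receptor genes had that order too, such as Olfr1188 at 3.50, 2.94 and 3.71. By the array names, wild types 4 and 6, the ends of this order, group together and wild type 3 stands apart, which is read here as a difference of run. The part of the run in it was not tested. Among genes above the receptor level with 3 different values, the most frequent order was another, with wild type 3 highest and wild type 6 lowest in 486 of 1262 (38.5%) and the order above in 49 (3.88%).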
